A study of Mus musculus with 24 samples.

Results

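The 36 genes described here carry out glucose uptake, glycolysis and glycogen metabolism in skeletal muscle and were taken as a named list, out of 21000 protein-coding genes with a curated RefSeq transcript on mm10. H3K27ac peaks were scored at each gene by an overlap of at least 1 bp with the window within 10 kb of any of its transcription starts, with its gene body, and with the 1 kb on each side of a start (a start peak). The genes fall into 4 uptake genes (Slc2a1, Slc2a4, Tbc1d1, Tbc1d4), 13 glycolysis genes, 4 lactate genes, 9 glycogen genes, 2 side-branch genes (Fbp2, Gpd1) and 4 genes that control pyruvate dehydrogenase (Pdk1, Pdk2, Pdk4, Pdp1). They were chosen by name and not by a measured value, although earlier results of these data were known at the time.

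H3K27ac ChIP-Seq, which marks active promoters and enhancers, was performed by the authors on myofibers isolated from the quadriceps of C57BL/6 mice (C57BL/6J in the methods) of both sexes that were 10 weeks old when treatment began. Weekly prednisone mice received 1 mg/kg prednisone by intraperitoneal injection on 1 day of each week and vehicle on the other days, 5 prednisone injections in all, and were harvested 4, 6 or 8 days after the last one. Vehicle mice of each sex received DMSO in PBS. For each of the 8 groups, 2 libraries of H3K27ac and 1 of input were sequenced. The processed files used here hold 1 peak list per group. They give no value per library, and differences between lists are therefore untested descriptions without a replicate check.

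As background, muscle takes up glucose through the insulin- and contraction-regulated transporter GLUT4 (Slc2a4), whose movement to the membrane is held back by the Rab GTPase-activating proteins TBC1D1 and TBC1D4 until they are phosphorylated. Glucose is then trapped by hexokinase and either stored as glycogen or split by glycolysis to pyruvate, which becomes lactate or enters the mitochondrion through pyruvate dehydrogenase. Glucocorticoids are known to oppose glucose use in muscle, and Pdk4, a kinase that shuts pyruvate dehydrogenase, is a well-known glucocorticoid target gene.

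Upstream sequences are printed for the 4 members that had a start peak in all 8 lists and the lowest median rank by normalized tags, because they had the highest start peaks among such members by that measure. For Aldoa the sequence lies at chr7:126800448-126800697, minus strand, for Eno3 at chr11:70656926-70657175, plus strand, for Pygm at chr19:6384158-6384407, plus strand and for Gapdh at chr6:125165774-125166023, minus strand. Each holds the 250 bases before a RefSeq start, 5′ to 3′ on the strand of the gene (RefSeq, GRCm38.p6), and overlaps no exon of a curated transcript.
Aldoa: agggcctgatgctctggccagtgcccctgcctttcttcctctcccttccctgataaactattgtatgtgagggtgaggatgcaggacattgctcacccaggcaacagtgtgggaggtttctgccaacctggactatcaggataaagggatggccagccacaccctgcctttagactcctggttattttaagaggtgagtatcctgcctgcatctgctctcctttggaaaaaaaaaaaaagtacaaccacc
Eno3: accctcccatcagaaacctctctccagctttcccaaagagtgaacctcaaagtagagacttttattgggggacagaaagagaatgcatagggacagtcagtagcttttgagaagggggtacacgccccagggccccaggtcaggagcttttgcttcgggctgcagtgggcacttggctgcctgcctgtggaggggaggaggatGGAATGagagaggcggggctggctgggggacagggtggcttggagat
Pygm: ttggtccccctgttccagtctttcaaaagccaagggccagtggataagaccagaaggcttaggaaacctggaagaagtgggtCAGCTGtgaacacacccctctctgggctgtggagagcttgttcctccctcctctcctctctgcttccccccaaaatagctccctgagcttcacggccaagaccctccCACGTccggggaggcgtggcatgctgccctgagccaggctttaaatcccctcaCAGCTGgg
Gapdh: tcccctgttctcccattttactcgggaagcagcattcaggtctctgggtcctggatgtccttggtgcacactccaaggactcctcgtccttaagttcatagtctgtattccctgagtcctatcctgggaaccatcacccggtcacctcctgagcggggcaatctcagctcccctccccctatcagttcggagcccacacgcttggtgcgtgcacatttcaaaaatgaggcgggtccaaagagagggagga

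The corresponding sequences are printed for 3 members whose start had a female day 4 peak that was absent from female vehicle and was still overlapped at day 8, taken in the order of the findPeaks score. For Slc16a1 the sequence lies at chr3:104638414-104638663, plus strand, for Pdk1 at chr2:71872974-71873223, plus strand and for Tbc1d1 at chr5:64160010-64160259, plus strand.
Slc16a1: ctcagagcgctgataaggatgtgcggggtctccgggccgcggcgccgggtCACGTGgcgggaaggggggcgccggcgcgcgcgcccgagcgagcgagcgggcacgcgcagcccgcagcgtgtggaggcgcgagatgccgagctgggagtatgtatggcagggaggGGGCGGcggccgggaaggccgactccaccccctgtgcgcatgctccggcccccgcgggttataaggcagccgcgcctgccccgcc
Pdk1: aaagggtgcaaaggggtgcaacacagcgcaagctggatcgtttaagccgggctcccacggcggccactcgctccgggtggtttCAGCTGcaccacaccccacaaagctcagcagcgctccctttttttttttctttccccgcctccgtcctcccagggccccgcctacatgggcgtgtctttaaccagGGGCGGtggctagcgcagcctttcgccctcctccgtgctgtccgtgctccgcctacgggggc
Tbc1d1: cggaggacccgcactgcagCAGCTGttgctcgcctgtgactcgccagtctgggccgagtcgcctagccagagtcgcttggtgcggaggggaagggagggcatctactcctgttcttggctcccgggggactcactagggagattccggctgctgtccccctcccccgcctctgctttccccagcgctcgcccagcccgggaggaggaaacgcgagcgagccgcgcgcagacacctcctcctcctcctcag

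Capitals mark matches, on either strand, to 6 motifs: the GC box GGGCGG, the E-box CAGCTG bound by myogenic factors, the hypoxia response core ACGTG, the glucocorticoid receptor element ACANNNTGT, the muscle M-CAT element CATTCC, and the MEF2 site. A palindromic site such as the one in Slc16a1 counts on both strands, and no overlap between different motifs was removed. An upstream sequence was matched for 33 of the 36 members and for 16835 protein-coding genes, with the first matched start of each gene used. Slc2a4, Gpd1 and Pdp1 had no entry.

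The E-box CAGCTG stood in 10 of the 33 members (30.3%) against 11.8% of all genes, and ACGTG in 13 of 33 (39.4%) against 18%. Among 32 further genes of the same pathways with a sequence, the E-box stood in 1 (3.1%) and ACGTG in 11 (34.4%). Ldha, which encodes the A subunit of lactate dehydrogenase, held 5 matches to ACGTG, and Ppp1r3c, a glycogen-targeting subunit of protein phosphatase 1, held 3. The GC box was present in 15 of 33 members (45.5%) and in 44.1% of all genes. ACANNNTGT was found in 0 of 33 members and in 5.28% of all genes, CATTCC in 1 of 33 (Eno3) and 11.4%, and the MEF2 site in 1 of 33 (Ppp1r3a) and 0.487%. These are matches to letters in a short window and are not binding sites.

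The peak lists differed in length and in base composition. The counts below were not adjusted for either, except where lists were cut to equal length. The number of peaks was 87600 in male vehicle and 17482, 32188 and 20499 in males at days 4, 6 and 8, and 38861 in female vehicle and 67503, 123249 and 81696 in females at days 4, 6 and 8. The depth recovered from the deposited values ranged from 7.52 M tags (male day 4) to 50.5 M tags (male day 6). A single peak on chromosome 2 held 23.6 to 45.4% of all peak tags in the lists of female vehicle and of males at days 4, 6 and 8, and 3.68 to 8.4% in the others. The median GC content of the peaks was lowest in female vehicle (42.9%) and male day 6 (44.5%) and lay between 48.2 and 53.0% in the other 6 lists. Of 10 myofiber markers, 5 had a start peak in male day 4 and 8 to 10 in the other lists, while the liver genes Alb and Apoa1 had a start peak in 0 and 2 of the 8 lists.

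Members carried a peak more often than other genes in every list. Within 10 kb of a start, all 36 members had a peak in male vehicle (72.2% of all protein-coding genes), 29 in male day 4 (41.6%), 31 in male day 6 (44.1%) and 34 in male day 8 (44.3%). In females the numbers were 33 in vehicle (45.8%), and all 36 at day 4 (67.3%), day 6 (78.3%) and day 8 (71.8%). From the share of all genes, 26 members in male vehicle, 15 in male day 4 and 16.5 in female vehicle would have had a peak. The members are of ordinary length, with a median of 18.8 kb against 16.7 kb for all genes, and 8 of 36 had another protein-coding start in their window (22.2%, all genes 26.6%).

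Over the gene body, 35 of 36 members had a peak in male vehicle (69.3% of all genes), 28 in male day 4 (38.5%), 32 in male day 6 (41.8%) and 34 in male day 8 (42.3%). Female lists had a peak over the body of 35 members in vehicle (43.9%) and 36 at day 4 (65.6%), day 6 (76.5%) and day 8 (70.2%). Start peaks were present at 35 members in male vehicle (54.8%), 27 in male day 4 (31.8%), 31 in male day 6 (32.0%) and 33 in male day 8 (35.4%). In females they were present at 28 members in vehicle (29.4%), at 35 by day 4 (54.2%) and at 36 on days 6 (69.9%) and 8 (62.5%).

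A window peak in all 8 lists was found at 28 of 36 members, against 24.6% of all genes. All 13 glycolysis genes were among them, with 7 of 9 glycogen genes, 3 of 4 lactate genes, 2 of 4 uptake genes (Slc2a4, Tbc1d1), 2 of 4 pyruvate dehydrogenase genes (Pdk2, Pdp1) and 1 of 2 side-branch genes (Gpd1). A body peak in all 8 lists was found at 27 members (21.2% of all genes) and a start peak in all 8 lists at 23 members (16.6%). No member lacked a window peak in every list. The 8 members without a window peak in at least 1 list were Slc2a1, Tbc1d4, Ldhb, Gyg, Ppp1r3a, Fbp2, Pdk1 and Pdk4.

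**Figure D1:**
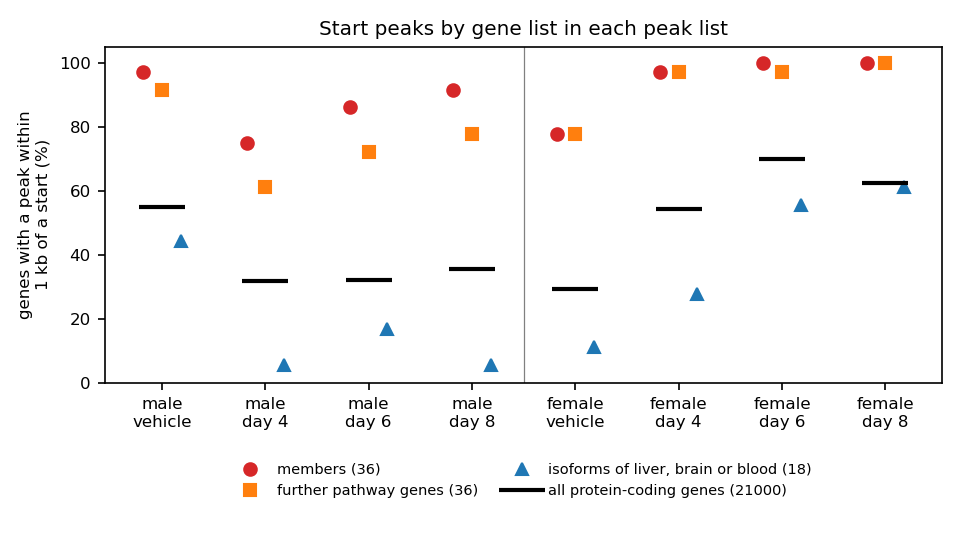
Percentage of genes with an H3K27ac peak within 1 kb of a start (vertical axis) in each of the 8 peak lists (horizontal axis), for the 36 members, 36 further genes of the same pathways, 18 isoforms typical of liver, brain or blood, and all 21000 protein-coding genes (black bars). Members lay above the bar in every list (75 to 100%), whereas the liver, brain and blood isoforms lay below it, though at female day 8 they lay close to it.

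The isoforms that other tissues use had start peaks less often than all genes in every list. Of 18 isoforms typical of liver, brain or blood, 8, 1, 3 and 1 had a start peak in males (vehicle, days 4, 6 and 8) and 2, 5, 10 and 11 in females. A window peak stood at 18, 4, 6 and 3 of them in males and 5, 9, 16 and 15 in females, above the share of all genes in male vehicle and in females at days 6 and 8. Pfkl, the liver-type phosphofructokinase, was the single gene of the 18 with a start peak in all 8 lists, and Slc2a2, Hk3, Ldhc and G6pc, the last of which makes free glucose in liver, were among those with a start peak in none. The tissue label of the list does not hold for Ldhc, and its gluconeogenesis genes G6pc and Pck1 have no counterpart among the members. Within enzyme families, Pygm (muscle glycogen phosphorylase) had a start peak in 8 lists against 3 for Pygl and 3 for Pygb. Gys1 (muscle glycogen synthase) had a start peak in 8 lists against 1 for Gys2. Eno3 and Eno1 had one in 8 lists against 2 for Eno2, and Aldoa in 8 against 2 for Aldoc. Of the 36 further pathway genes, 19 had a window peak in all 8 lists and 15 a start peak in all 8. These included the pyruvate dehydrogenase subunits Pdhb, Dlat and Pdhx and the mitochondrial pyruvate carriers Mpc1 and Mpc2.

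The start peaks of members were broad and ranked high by summed tags, but not in every list by fold over input. Their median length was 2.12, 0.917, 2.05 and 1.64 kb in males (vehicle, days 4, 6 and 8) and 1.52, 4.16, 5.69 and 6.04 kb in females. The median over all genes with a start peak was 1.06, 0.724, 1.02 and 0.936 kb in males and 0.789, 1.64, 1.87 and 1.93 kb in females. Between 71.4 and 91.4% of the members with a start peak ranked above the median of all such genes by normalized tags, a sum over the peak that is larger for longer peaks. The median fold over input of these members was 5.2, 10.4, 3.61 and 4.41 in males and 5.995, 6.43, 12.845 and 17.595 in females. For all genes with a start peak it was 5.1, 9.25, 3.9 and 4.41 in males and 6.81, 6.22, 12.27 and 15.31 in females. The share of the window covered by peaks had a median over members of 19.7, 5.43, 14.9 and 10.1% in males and 13, 31.9, 39.9 and 46.6% in females, against 5.01, 0, 0 and 0% and 0, 5.41, 11.3 and 8.43% for all genes. In the values for single genes that follow, 4 values per sex stand in the order vehicle, day 4, day 6, day 8. For start peak length, the median over all genes was itself longer in each female list after prednisone than in female vehicle.

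**Figure D2:**
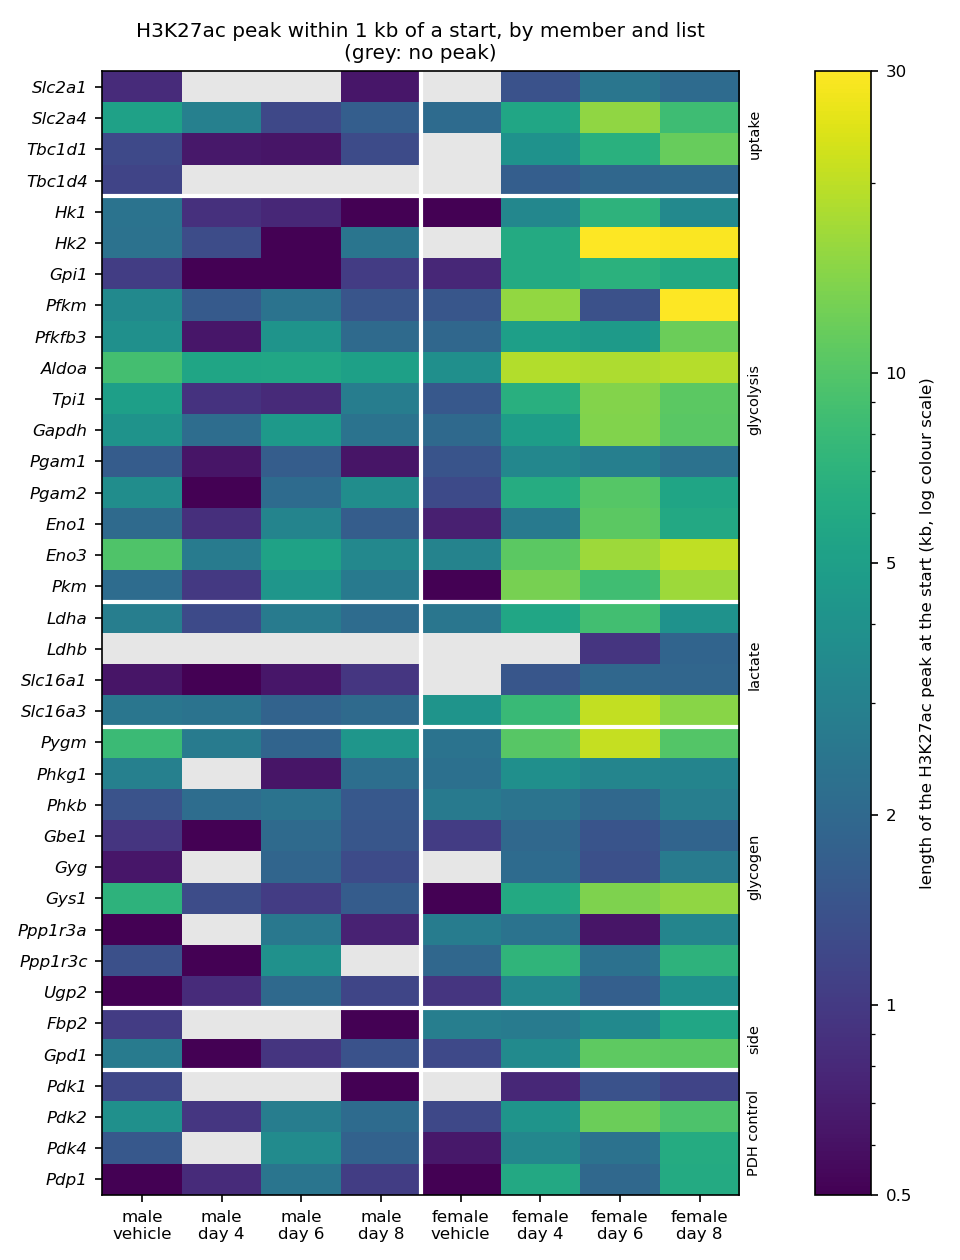
Length in kb (log colour scale) of the H3K27ac peak with the most normalized tags within 1 kb of a start, for each member (rows, grouped by role) in each peak list (columns), with grey where there was no peak. Aldoa is among the longest in every list (3.85 to 19.2 kb), and Hk2 and Pfkm reach 30 and 29.9 kb in females after prednisone.

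Among the uptake genes, Slc2a4 (chr11:69942286-69948197, minus strand), which encodes GLUT4, was the member with a start peak in every list. Its length was 5.19, 2.97, 1.22 and 1.7 kb in males and 2.08, 5.66, 15.2 and 8.45 kb in females. All 8 lists had it, and every female list after prednisone had a longer peak than female vehicle, with the day 6 peak running on over the start of Ybx2. Slc2a1, which encodes the ubiquitous transporter GLUT1, had start peaks of 0.822, no peak, no peak and 0.64 kb in males and no peak, 1.39, 2.5 and 2.09 kb in females. Males at days 4 and 6 had no peak anywhere in its window, and female vehicle had a single window peak, away from the start.

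Tbc1d1 and Tbc1d4 encode the Rab GTPase-activating proteins that hold GLUT4 inside the cell. Tbc1d1, a gene of 191 kb, had start peaks of 1.23, 0.652, 0.629 and 1.27 kb in males and no peak, 4.06, 6.75 and 11.6 kb in females. Tbc1d4, of 167 kb, had 1.17, no peak, no peak and no peak in males and no peak, 1.69, 1.96 and 2.03 kb in females. Tbc1d4 was the member with a window peak in the fewest lists, 4 of 8. Its window was covered to 5.83, 0, 0 and 0% in males and 0, 14.1, 12.3 and 12.7% in females. In the window of Tbc1d4, the 3 female lists after prednisone and male vehicle therefore stood apart from the other 4 lists. They were also the 4 lists with the most peaks. Over the body of Tbc1d4, male day 6 had 3 peaks and female vehicle 4, and male days 4 and 8 had none.

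In male vehicle, male day 8 and the 3 female lists after prednisone, glycolysis genes had the longest start peaks of all roles. Their median length was 3.47, 0.917, 2.4 and 2.39 kb in males and 1.47, 6.1, 10.2 and 10.7 kb in females. Aldoa (chr7:126795234-126800447, minus strand), which encodes muscle aldolase, led the members in 7 of 8 lists. Its rank by normalized tags was 27, 25, 38 and 42 in males and 61, 20, 58 and 41 in females. The peak measured 8.88, 5.59, 5.63 and 5.13 kb in males and 3.85, 18.8, 18.3 and 19.2 kb in females, and in the 3 female lists after prednisone it also covered the start of Ppp4c. Even the shortest Aldoa peak, in female vehicle, was among the 61 highest of 38861 peaks.

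Eno3 (chr11:70657176-70662513, plus strand), the muscle enolase, had start peaks of 9.78, 2.77, 5.28 and 3.38 kb in males and 3.1, 10.8, 16.5 and 20.2 kb in females. It ranked between 43 and 401, and its peak also covered the start of Pfn1 in 7 of the 8 lists, so the signal there cannot be assigned to Eno3 alone. Gapdh, which encodes glyceraldehyde-3-phosphate dehydrogenase, had 4.09, 2.17, 4.61 and 2.39 kb in males and 2.03, 4.92, 13.7 and 10.6 kb in females. Tpi1 (triosephosphate isomerase) had 5.07, 0.917, 0.812 and 2.82 kb in males and 1.54, 6.58, 14.1 and 10.7 kb in females. For both, the longest peak was that of female day 6.

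Hexokinase 2, the insulin-responsive enzyme that traps glucose in muscle, showed the widest range. Hk2 (chr6:82725025-82774454, minus strand) had start peaks of 2.35, 1.3, 0.5 and 2.45 kb in males and no peak, 6.08, 30 and 29.4 kb in females. The broad domain of females at days 6 and 8 began upstream of the start and covered the first part of the 49.4 kb gene, where female vehicle had 4 separate peaks within 10 kb of the start and none within 1 kb. By rank, the Hk2 start peak was 1537, 687, 9274 and 781 in males and no peak, 711, 129 and 35 in females. Hk1, the hexokinase of most tissues, had shorter peaks of 2.38, 0.882, 0.785 and 0.5 kb in males and 0.5, 3.32, 7.05 and 3.44 kb in females.

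Pfkm (muscle phosphofructokinase), with 4 annotated starts and the start of Senp1 within 1 kb, had start peaks of 3.47, 1.6, 2.4 and 1.46 kb in males and 1.51, 15.5, 1.38 and 29.9 kb in females. The short peak of female day 6 lay at the first start (chr15:98092672-98094051), while the long peak of female day 8 lay over a downstream start (chr15:98107726-98137602). Its window was covered to 31.4, 8.25, 20.9 and 21.2% in males and 19.9, 40.1, 41.6 and 46.7% in females. Pfkfb3, which makes the activator of phosphofructokinase, had 3.88, 0.645, 4.15 and 2.07 kb in males and 1.96, 5.01, 4.64 and 12 kb in females.

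Pkm (pyruvate kinase) had start peaks of 2.12, 0.985, 4.27 and 2.7 kb in males and 0.5, 12.9, 8.48 and 16.4 kb in females. Eno1, the enolase of most tissues, had 2.07, 0.867, 3.16 and 1.66 kb in males and 0.717, 2.68, 10.7 and 5.91 kb in females. Pgam2, the muscle phosphoglycerate mutase, had 3.7, 0.5, 2.1 and 3.72 kb in males and 1.25, 6.26, 10.2 and 5.52 kb in females. All 3 were shortest in female vehicle or male day 4 and longest in a female list after prednisone. Pgam1, the mutase of most tissues, had 1.66, 0.629, 1.68 and 0.628 kb in males and 1.44, 3.33, 2.91 and 2.33 kb in females. Gpi1 (glucose-6-phosphate isomerase) had 1.05, 0.5, 0.5 and 1.04 kb in males and 0.793, 6.1, 6.85 and 5.99 kb in females. In females both were longer in each list after prednisone than in vehicle.

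**Figure D3:**
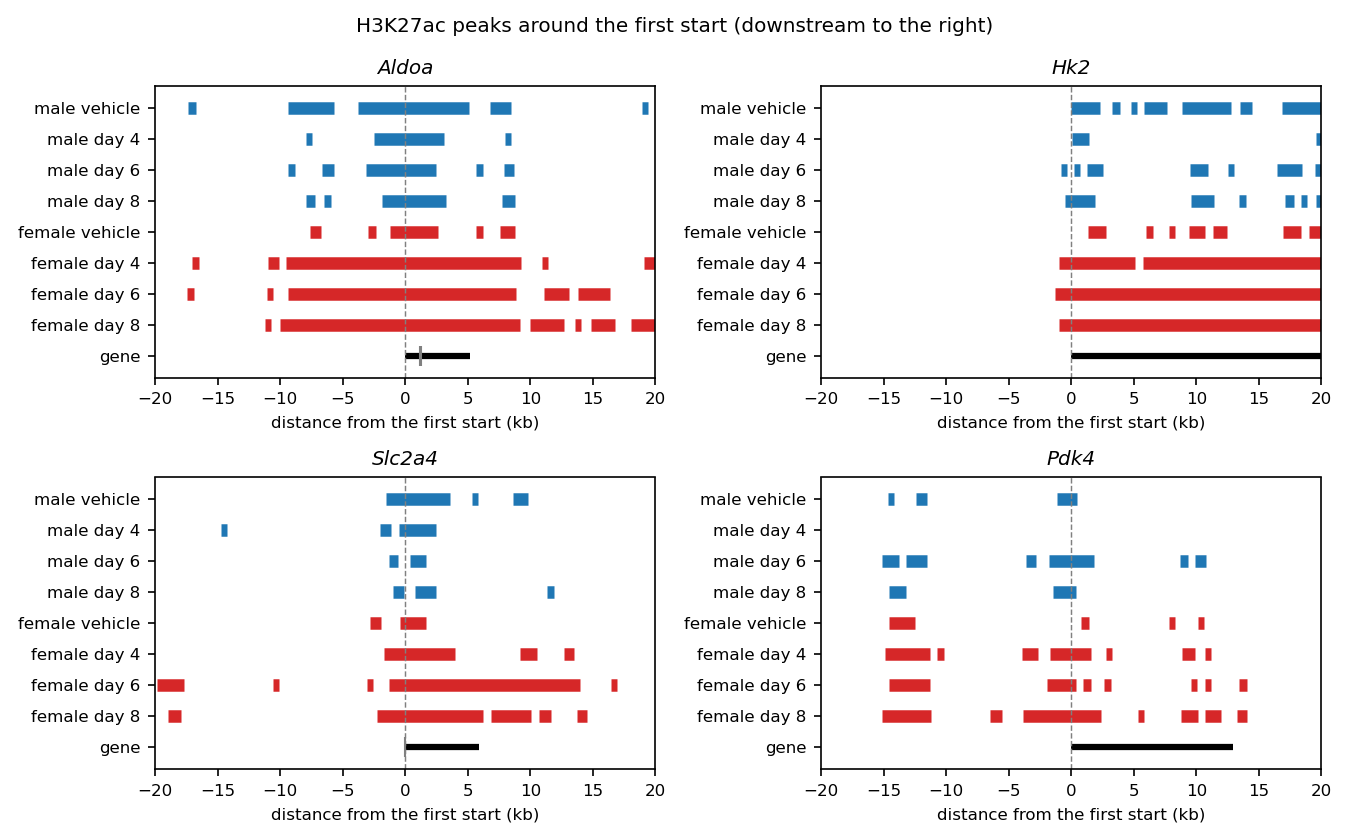
H3K27ac peaks (bars; blue, male lists; red, female lists) by distance in kb from the first RefSeq start of Aldoa, Hk2, Slc2a4 and Pdk4, with the gene drawn in black below and any further starts as grey ticks. The female lists after prednisone show 1 merged domain over Aldoa, and over Hk2 this holds at days 6 and 8, with 2 adjoining peaks at day 4, whereas male day 4 has no peak within 20 kb of the Pdk4 start.

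In the lactate group, Ldha had start peaks of 2.87, 1.25, 2.75 and 2.13 kb in males and 2.5, 5.61, 8.7 and 4.03 kb in females. Ldhb, the heart-type subunit, had no peak, no peak, no peak and no peak in males and no peak, no peak, 0.947 and 1.87 kb in females, and was the member with a start peak in the fewest lists. Its 2 start peaks ranked 27626 of 123249 and 19797 of 81696 peaks. The lactate exporter Slc16a3 (MCT4), typical of glycolytic fibers, had 2.5, 2.36, 1.83 and 2.06 kb in males and 4.16, 8.03, 20.6 and 14.4 kb in females. Slc16a1 (MCT1), typical of oxidative fibers, had 0.633, 0.5, 0.637 and 0.96 kb in males and no peak, 1.49, 1.97 and 1.94 kb in females. The MCT4 peak was longer than the MCT1 peak in each of the 7 lists that had both.

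The glycogen genes included both long and short start peaks. Pygm (chr19:6384408-6398464, plus strand), the enzyme that breaks down glycogen, had start peaks of 8.12, 2.77, 1.86 and 4.29 kb in males and 2.38, 10.3, 21 and 9.97 kb in females, and the synthase Gys1 had 7.06, 1.29, 1.03 and 1.64 kb in males and 0.5, 6.06, 13.5 and 15.1 kb in females. The start of Ruvbl2 lies within 1 kb of that of Gys1 and was covered in 4 lists. Phkg1, the catalytic subunit of phosphorylase kinase, had 2.97, no peak, 0.632 and 2.2 kb in males and 2.28, 3.85, 3.2 and 3.17 kb in females. In the window of Pygm the covered share reached 64.8, 19.7, 20.6 and 33.4% in males and 20.1, 71.2, 98.2 and 83% in females.

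The regulatory subunit of phosphorylase kinase, Phkb, had start peaks of 1.43, 2.15, 2.36 and 1.55 kb in males and 2.66, 2.43, 2 and 2.86 kb in females, and these also covered the start of Itfg1 in all 8 lists. Gbe1 (branching enzyme) had 0.944, 0.5, 2.05 and 1.5 kb in males and 1.03, 2.01, 1.45 and 1.86 kb in females. Gyg, encoding glycogenin, which primes the particle, had 0.644, no peak, 1.91 and 1.27 kb in males and no peak, 2.09, 1.35 and 2.75 kb in females. None of these 3 was above 2.86 kb in any list. Even so, Phkb was longer in every list than the median of all genes with a start peak. Ugp2, which makes UDP-glucose, had 0.5, 0.826, 2.03 and 1.17 kb in males and 0.944, 3.32, 1.72 and 3.88 kb in females. The phosphatase-targeting genes Ppp1r3a and Ppp1r3c had 0.5, no peak, 2.58 and 0.74 kb in males and 2.79, 2.37, 0.628 and 3.21 kb in females, and 1.36, 0.5, 3.98 and no peak in males and 1.96, 7.25, 2.29 and 7.06 kb in females, respectively. Ppp1r3a and Phkb were longer in female vehicle than in female day 6, although the latter list had more peaks. The start peak shown for Pfkm was also longer in female vehicle, but its window was more covered in female day 6 (41.6%) than in female vehicle (19.9%).

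By covered share, Phkb and Ppp1r3a were again lower in female day 6 than in female vehicle. Phkb was covered to 7.17, 10.7, 21.6 and 10.3% in males and 20.8, 16.1, 10 and 26.7% in females, and Ppp1r3a to 2.5, 0, 18.1 and 6.88% in males and 13.9, 22, 3.15 and 22.8% in females. The window of Ppp1r3a had a GC content of 36.2% and that of Phkb 38.5%, the lowest of all members, while that of Gbe1 had 42.2%. In all, 7 of 36 members (Ppp1r3a, Phkb, Ugp2, Pdp1, Gbe1, Pkm, Fbp2) were less covered in male vehicle than in female vehicle, although the male list had 87600 peaks and the female list 38861, and their median window GC was 41.1% against 48.2% for the other 29. Likewise 12 of 36 members were less covered in female day 6 than in both day 4 and day 8, with a median window GC of 42.7% against 48.6% for the other 24.

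Across the 36 members, the Spearman correlation of covered share with window GC was 0.805 in male vehicle and 0.863 in female day 6, but 0.08 in male day 6 and 0.263 in female vehicle. Over all 21000 genes it was 0.64 and 0.752 in the first pair of lists and 0.179 and 0.167 in the second. Genes share a list and its depth here, so these values are descriptions. The windows of glycogen genes had a median GC of 43.2% and those of glycolysis genes 48.4%. The part of base composition in the differences between lists and between roles was not tested.

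**Figure D4:**
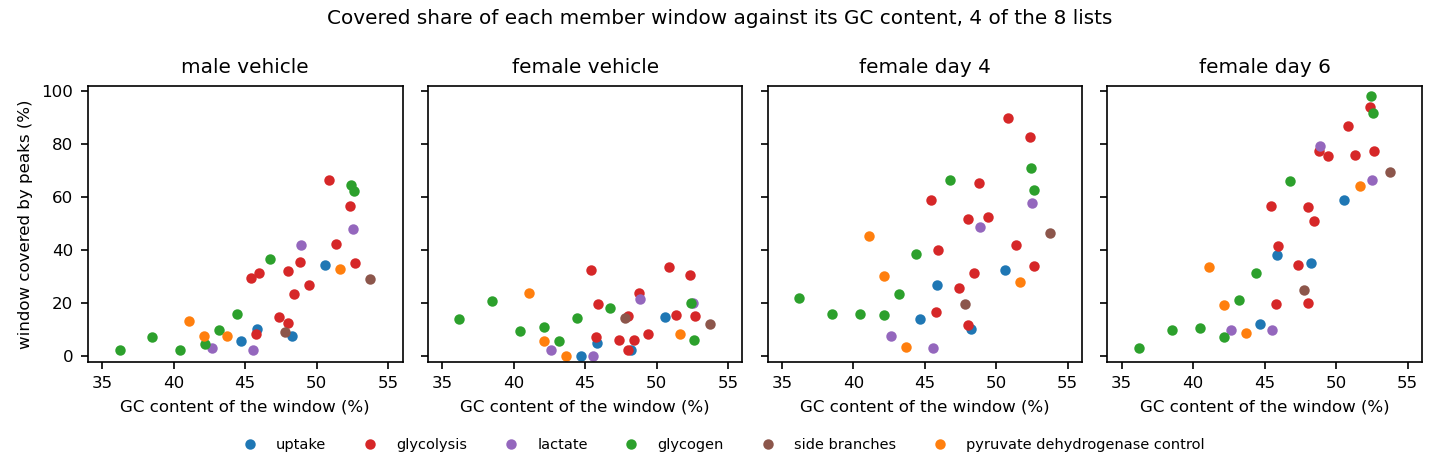
Share of each member's 10 kb window covered by H3K27ac peaks (vertical axis, %) against the GC content of that window (horizontal axis, %) in the lists of male vehicle, female vehicle, female day 4 and female day 6, 1 point per member coloured by role. In male vehicle and female day 6 the covered share climbs with GC content (Spearman 0.805 and 0.863), and in female vehicle the points stay low across the range (0.263).

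Of the side-branch genes, Gpd1, the glycerol-3-phosphate dehydrogenase, had start peaks of 2.74, 0.5, 0.936 and 1.4 kb in males and 1.24, 3.55, 10.9 and 10.7 kb in females, and Fbp2, the muscle fructose bisphosphatase, had 1.03, no peak, no peak and 0.5 kb in males and 2.87, 2.76, 3.46 and 5.67 kb in females. The genes that control pyruvate dehydrogenase differed among themselves. Pdk2 had 3.89, 0.963, 2.84 and 2.1 kb in males and 1.22, 4.16, 11.9 and 9.61 kb in females. Pdk4 (chr6:5483351-5496278, minus strand) had 1.55, no peak, 3.6 and 1.81 kb in males and 0.649, 3.34, 2.33 and 6.18 kb in females. Male day 4 had no peak at Pdk4 within 10 kb of the start or over the body, while male day 6 had 4 in the window and a start peak of 3.6 kb against 1.55 kb in male vehicle.

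Pdk1, a kinase induced by hypoxia, had start peaks of 1.19, no peak, no peak and 0.5 kb in males and no peak, 0.787, 1.41 and 1.15 kb in females. The phosphatase gene Pdp1, whose product switches pyruvate dehydrogenase on, had 0.5, 0.822, 2.44 and 1.05 kb in males and 0.5, 5.93, 2 and 6.09 kb in females. In females Pdk4 was longer in each list after prednisone than in vehicle, as was the median over all genes with a start peak. In males the order for Pdk4 was day 6, day 8, vehicle, with none at day 4.

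Ranked by the findPeaks score instead of tags, the leading members changed. The 3 highest per list were Aldoa, Pfkm and Tpi1 in male vehicle, Pdk2, Ldha and Aldoa in male day 4, Aldoa, Tpi1 and Gys1 in male day 6, and Gpd1, Pgam1 and Pdk4 in male day 8. In females they were Pfkm, Gapdh and Pkm in vehicle, Phkg1, Gyg and Pfkfb3 at day 4, Pfkm, Pdk4 and Ugp2 at day 6, and Pfkfb3, Tbc1d1 and Gyg at day 8. The score counts tags in the initial part of a region and does not grow with the length of a domain such as that of Hk2. In male day 4 the Pdk2 peak stood at place 57 of 17482, and in female day 6 the Pfkm peak at place 109 of 123249.

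Between vehicle and day 4, males lost the window peak at 7 of 36 members (Slc2a1, Gyg, Ppp1r3a, Fbp2, Pdk1, Pdk4, Tbc1d4), against 44.3% of all genes with a peak in vehicle. At day 6 males lacked it at 5 of 36 (42.8%) and at day 8 at 2 of 36, Ldhb and Tbc1d4 (41.2%). No member could gain a window peak in males, since all had one in vehicle (4.97, 9.81 and 6.77% of the other genes gained one at days 4, 6 and 8). In females Ldhb, Pdk1 and Tbc1d4 lacked a window peak in vehicle, and all 3 gained one at day 4 (48.0% of all such genes), day 6 (65.3%) and day 8 (54.8%). Females lost it at 0 of 33 members on every day (9.75, 6.29 and 8.09% of all genes).

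Start peaks gave more room for a change. Of the 8 members without a start peak in female vehicle, 7 had one at day 4 (36.7% of all genes), namely Slc2a1, Hk2, Slc16a1, Gyg, Pdk1, Tbc1d1 and Tbc1d4, and all 8, now with Ldhb, at day 6 (58.3%) and day 8 (47.8%). None of the 28 members with a start peak in female vehicle was without it later (3.71, 2.23 and 2.32% of all genes). In males, 8 of 35 members lacked their vehicle start peak at day 4 (45.2%), 4 at day 6 (44.8%) and 2 at day 8 (38.7%). Ldhb, the member without one in male vehicle, gained none on any day (3.84, 3.84 and 3.97% of all such genes did). Over the gene body, males lacked the vehicle peak at 8 of 35 members at day 4 (46.3%), and females at 0 of 35 (7.13%).

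Start peaks at markers of other cells also differed between the lists. Of 4 endothelial markers, 4, 1, 4 and 1 had a start peak in males and 1, 4, 4 and 4 in females, and of 3 fibroblast markers 2, 1, 1 and 0 in males and 1, 3, 3 and 3 in females. Satellite cell markers had a start peak in 0 of 3 in each male list and in female vehicle, and in 1, 1 and 3 of 3 in females at days 4, 6 and 8. Of 4 macrophage markers 1, 0, 0 and 0 had one in males and 0, 1, 2 and 2 in females. Adipocyte markers had one in 0, 1, 0 and 0 of 3 in males and 0, 0, 0 and 1 in females. Smooth muscle markers had one in 1, 0, 0 and 0 of 2 in males and 1, 0, 2 and 2 in females, and Schwann cell markers in 2, 1, 1 and 1 of 2 in males and 1 in each female list. The part of other cells, and of list length, in the differences between lists was not tested.

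Cut to 17482 peaks each, the length of the shortest list, the lists gave different orders by the measure used. By normalized tags, start peaks stood at 29, 27, 31 and 33 members in males and 26, 34, 33 and 35 in females (all genes 34.4, 31.8, 30.1 and 34.5%, and 23.3, 41.9, 46.8 and 45.7%). By the findPeaks score they stood at 20, 27, 30 and 32 members in males and 26, 24, 18 and 19 in females (29.9, 31.8, 28.2 and 34.7%, and 22.4, 31.6, 31.5 and 31.1%). The female lists after prednisone thus had more members with a start peak than female vehicle by the first measure and fewer by the second. In both cases members exceeded the share of all genes in each of the 8 lists.

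Prednisone-responsive enhancers (PREs) are day 4 peaks that overlap no peak of the vehicle list of their sex. In males, 14 of the 82 day 4 peaks in the windows and bodies of members were PREs, 17.1% (Wilson 95% interval 10.5 to 26.6%, counting error only), against 45.4% of all male day 4 peaks. They lay at 11 members. Of these 14, 1 was overlapped by a day 6 peak (in Pfkfb3) and 1 by a day 8 peak (at Gpd1), each 7.14% (1.27 to 31.5%), against 5.84 and 5.01% of all male PREs. None was present on both days. By position 7 lay in introns, 3 upstream, 2 in exons and 2 downstream, and none within 1 kb of a start.

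In females, 139 of 212 day 4 peaks at members were PREs, 65.6% (58.9 to 71.6%), against 81.9% of all female day 4 peaks. They lay at 31 members, all but Pfkm, Tpi1, Pgam1, Pgam2 and Eno3, 5 glycolysis genes whose day 4 peaks all met a vehicle peak. Of the 139, 97 were overlapped at day 6 and 97 at day 8, each 69.8% (61.7 to 76.8%), against 50.3 and 43.6% of all female PREs, and 84 were overlapped on both days. The day 8 overlap covered 28 members. Introns held 97 of the PREs (63 overlapped at day 8), and 22 lay upstream (18), 7 in exons (5), 6 downstream (4) and 7 within 1 kb of a start (7).

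**Figure D5:**
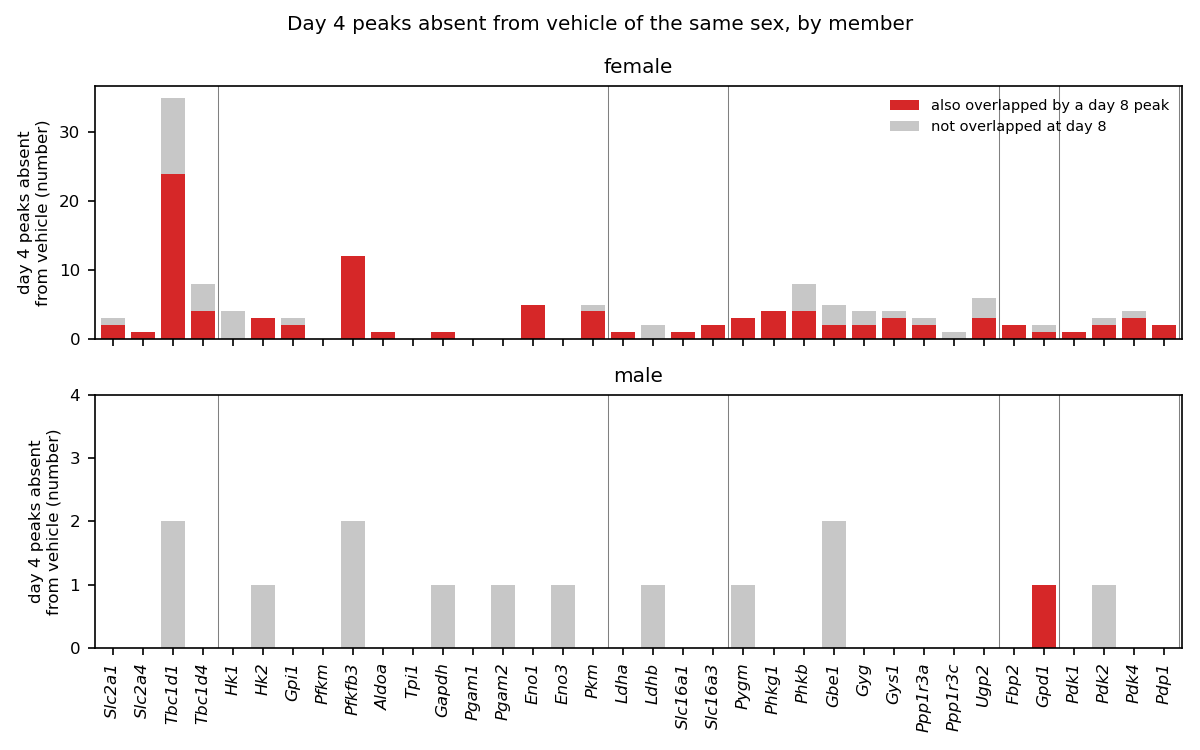
Number of day 4 peaks absent from vehicle of the same sex (vertical axis; the scale differs between the sexes) at each member (horizontal axis, in role order, grey lines between roles), with those also overlapped by a day 8 peak in red. Tbc1d1 holds 35 of the 139 in females, and males have at most 2 at any member.

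Tbc1d1 held 35 of the female PREs, 24 of them overlapped at day 8, along its 191 kb. Pfkfb3 held 12, all overlapped at day 8, and Eno1 5, all overlapped at day 8. Phkb held 8 (4 at day 8), Tbc1d4 8 (4), Ugp2 6 (3) and Gbe1 5 (2). Hk1 had 4 PREs of which 0 met a day 8 peak, and Ppp1r3a had 3 of which 0 met a day 6 peak and 2 a day 8 peak. At Gbe1 too, 0 met a day 6 peak and 2 a day 8 peak.

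The 7 female PREs at a start belonged to Slc2a1, Pfkfb3, Slc16a1, Gyg, Pdk1, Tbc1d1 and Tbc1d4, and each was overlapped at both later days. No share by position over all female PREs is given here for comparison. Of all protein-coding genes, 69.9% had a start peak in female day 6 and 62.5% in female day 8. That of Slc16a1 lay at chr3:104637771-104639263 with a score of 42 and 10.9-fold over input. That of Pdk1 lay at chr2:71873139-71873926 with a score of 39 and 13.6-fold over input, and that of Tbc1d1 at chr5:64159299-64163358 with a score of 38 and 4.03-fold over input. Each covered the RefSeq start of its gene, with the whole upstream sequence printed above for Slc16a1 and Tbc1d1 and part of it for Pdk1. The Tbc1d4 peak lay at chr14:101607853-101609541 and the Gyg peak at chr3:20153605-20155698.

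The peaks of the 8 lists at members merged into 327 regions. Of these, 32 had a peak in all 8 lists, 27 of them over a start, and 157 had a peak in 1 list. A broad peak of 1 list can join separate peaks of other lists into 1 region, so its lists need not share a site. The regions over the starts of Hk2, Tbc1d1 and Ppp1r3c were in all 8 lists. Yet Hk2 and Tbc1d1 had no start peak in female vehicle, and Ppp1r3c had none in male day 8. Regions at all 21000 genes, drawn in the same way, had a peak in all 8 lists in 2.88% of cases (members 9.79%) and in 1 list in 63.4% (members 48.0%). The 5 regions in all 8 lists away from a start lay at Gpi1 (chr7:34231664-34236902, 1.33 kb upstream), Pfkfb3 (chr2:11523134-11538142, in the gene), Phkg1 (chr5:129885227-129888112, 6.14 kb upstream), Phkb (chr8:85857873-85864147, in the gene) and Gyg (chr3:20129489-20132716, in the gene). The Phkg1 region contains the start of the neighbouring gene Chchd2. Of 286 regions more than 1 kb from a start, 32 were present in females at days 4, 6 and 8 and absent in female vehicle (11.2%, all genes 6.67%). Of these, 16 were in no male list either (5.59%, all genes 2.21%), at Aldoa, Eno1, Gpd1, Gys1, Pfkfb3, Phkb, Tbc1d1, Tbc1d4 and Ugp2. The analogous pattern in males, all 3 days without vehicle, was found at 0 of 286 and at 0.0225% of the regions at all genes, with 87600 peaks in male vehicle and 17482 in male day 4. Only in male vehicle were 24 regions found (8.39%, all genes 13.3%), and 18 were in both vehicle lists (6.29%, all genes 2.92%), of which 0 lacked a later peak in every list.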

How the data were processed

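Reads were trimmed (homerTools) and mapped to mm10 by the authors, using Bowtie2 (2.2.6 per the submitters' notes, which also name TopHat2 2.1.0) and HOMER findPeaks called histone-style peaks at a minimum of 2-fold over input. The authors deposited 1 list for each group of 2 H3K27ac libraries, and how the libraries were combined is not given in the sources used here. The deposited normalized tag count is a signal scaled to 10 M tags, and the deposited tags of H3K27ac and input are signals too. The deposited findPeaks score counts tags and is unscaled. The deposited fold over input is a ratio, and the deposited p-value of each peak was not used. Region lengths were used as deposited.

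Genes were the 21000 protein-coding genes with curated transcripts (37867) in RefSeq GRCm38.p6. Overlaps were computed in Python 3.11.15 with pandas 2.3.3 and checked against bedtools 2.31.1 on 1000 simulated windows, of which 1000 gave equal counts. Depth was recovered from the steps between low normalized values in 6 lists and from tags over normalized tags in male day 4 and female day 6. All low values came out as whole tags within 0.0075. Scores and tags were compared only within a list, as ranks, and folds within a list as medians, because depth and scaling differ between lists. In the alternative with a stricter fold, the same cut of at least 4 was applied to all lists. Regions were peaks of any list merged at a gene, and were counted once per gene. Expected shares came from all protein-coding genes, and percent intervals are Wilson 95% intervals. The start peak shown is that with the most normalized tags within 1 kb of a start. GC content was read from the RefSeq genome of the same build. The 36 members, the other gene lists, the markers and the motifs were chosen with earlier results of these data known. Every member was named by its presence in each list. Alternatives were lists of equal length, a stricter fold, a 50% overlap, a 1 kb window, the first start alone, a gap of 1 kb to vehicle peaks, genes with a window peak in at least 1 list as background and, added after the data were seen, equal length by tags and the omission of Tbc1d1.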

Additional observations from a re-analysis of the deposited data

Results flagged for a closer look

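Between vehicle and day 4 the number of members with a window peak moved in opposite directions in the sexes, by -7 in males and by 3 in females. The share of all protein-coding genes moved in the same directions, from 72.2 to 41.6% in males and from 45.8 to 67.3% in females. The shift was therefore not particular to the members. The window of Pdk1 held 2 fewer peaks at day 4 in males (-2) and 1 more in females. The window of Tbc1d4 held 1 fewer in males (-1) and 3 more in females. With 1 list per group the difference between the sexes was not tested, and the lists also differed in length in the same directions.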

How the results depend on the processing

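The peak lists used here give no values per library, so no replicate was left out. No paired analysis was possible because the peak lists carry no replicate. With lists cut to the same number of peaks by findPeaks score, female day 6 had a window peak at 22 members (42.2% of all genes). Males then gained 4 and lost 4 members between vehicle and day 4, and females lost 6. For the other counts of members, PREs and regions in this paragraph, no share over all genes is given. Male PREs then numbered 42, with 33.3% overlapped at day 6 and 38.1% at day 8, female PREs 51, with 27.5 and 31.4%, and 5 regions were in all lists. The causes of these shifts were not tested beyond the shorter lists themselves. Cut by normalized tags, males gained 4 and females 5 members, with 23 male and 43 female PREs and 81.4% of the latter overlapped at day 8. At a fold over input of at least 4, male day 6 had a body peak at 20 members, males gained 1 member and had 34 PREs, and 14 regions were in all lists. Requiring 50% of a peak inside gave 24 male PREs, and requiring no vehicle peak within 1 kb gave 8. Within 1 kb of a start, there were 0 male and 7 female PREs, 100% of the latter overlapped at days 6 and 8, and females gained 7 members. With the first start alone, females gained 5. Without Tbc1d1 all 6 PRE counts and shares stayed within 1.5 times or their interval. Among genes with a window peak in at least 1 list, the share with one was 47.6 to 89.6% per list (41.6 to 78.3% of all genes), and members exceeded it in each list. A peak absent from male day 4, the list of lowest depth, was not detected at that depth.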
